A study of Homo sapiens with 12 samples.

Results

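The genes described here are 10 members of the interleukin 1 (IL1) family pathway: the ligands IL33, IL1A and IL18, the receptors IL1RL1, IL1RAP, IL1R2 and IL18R1, and the receptor-associated kinases IRAK1, IRAK2 and IRAK3. They were taken by name, and every probe that the array's gene table lists with 1 of these genes and no other was used. The 10 genes are among 18106 that could be tested. They had 12 probes of 54359 on the array, with a second probe for IL1A and for IRAK3, and all 12 had the positive values needed for the test (2 or more arrays in each group).

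The cells were T-HESC, a line of human endometrial stromal cells made immortal with telomerase, so every culture came from 1 line. All cultures were kept 24 h without serum in medium with puromycin and an insulin, transferrin and selenium supplement, and were then treated for 48 h. One of the 4 groups was the vehicle control. The second received TNFα (tumour necrosis factor alpha, 5 ng/ml), the third IL1β (interleukin 1 beta, 1 ng/ml), and the last the pair together at the same doses. Each group had 3 cultures, from passage 13 (replicate 1), passage 28 (replicate 2) and passage 15 (replicate 3), and each culture had its own single-colour array. The study asked which genes these cytokines change in endometrial stromal cells.

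IL1 family cytokines are alarm signals of tissue damage and inflammation. A ligand binds a receptor chain, which then recruits a partner chain: IL1 alpha and beta share a receptor, IL33 binds IL1RL1, both receptors pair with IL1RAP, and the IL18 receptor has a partner of its own. The paired receptors bring in the adaptor MYD88 and IRAK kinases, and these pass the signal on to NF-kB and MAP kinases. IL33 is kept in the nucleus of stromal, epithelial and endothelial cells and is released when cells are damaged; in the endometrium, IL33 and other IL1 family members are studied in implantation and endometriosis.

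Values are scaled intensities, on which the median probe of every array lies near 1, and tests were run on their log2. Between 52944 and 53507 probes per array were positive. Vehicle replicate 3, TNFα replicate 3 and IL1β replicate 2 stood apart on the first principal component (22.6% of the variance). Their scores were 171, 68.7 and 53.0, against −84.8 to −18.2 for the other 9 arrays. Of those 9, vehicle replicate 1 lay alone at −84.8, with the others at −33.8 to −18.2. Its median Spearman correlation with the other arrays was also lower than those of TNFα replicate 3 and IL1β replicate 2. The IL33 differences from vehicle are also given without the 3 arrays that stood apart. Calls of named genes that ended without those 3 arrays are stated beside the result. Vehicle replicate 1 was kept in these fits and was left out only where each array was left out in turn. All 12 measured stromal markers of 15 listed were above 1 on every array, among them the collagen gene COL1A1 (259 to 936) and the matrix proteoglycan DCN (218 to 453). Of the markers of other cells, 5 of 9 epithelial, 2 of 8 endothelial, 2 of 10 leukocyte and 2 of 4 mast cell genes were also above 1 on every array. Among these were KRT19 (13.9 to 97.3), ESRP1 (13.4 to 26.6), the endothelial and leukocyte adhesion gene PECAM1 (7.99 to 17.3) and the macrophage gene CD68 (2.50 to 6.17). Others of the same lists stayed below 1, such as the leukocyte gene PTPRC (0.0015 to 0.280), the epithelial gene EPCAM (−0.0564 to 0.785) and the endothelial cadherin CDH5 (0.369 to 0.827).

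IL33 rose with both cytokines, and it was the only 1 of the 12 probes to pass the test in any comparison. The intensities of IL33 on the vehicle arrays were 2.48, 0.643 and 1.60 for replicates 1, 2 and 3. With TNFα they were 25.4, 15.3 and 13.9. With IL1β they were 24.5, 7.48 and 19.9. With both cytokines they were 16.6, 31.3 and 42.2. All 9 arrays of treated cells were therefore above all 3 vehicle arrays, while the 3 treated groups overlapped each other. In whole cultures, more signal per cell and more cells with the transcript cannot be told apart. Within the treated groups the lowest value was that of IL1β replicate 2 and the highest that of replicate 3 with both cytokines.

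**Figure D1:**
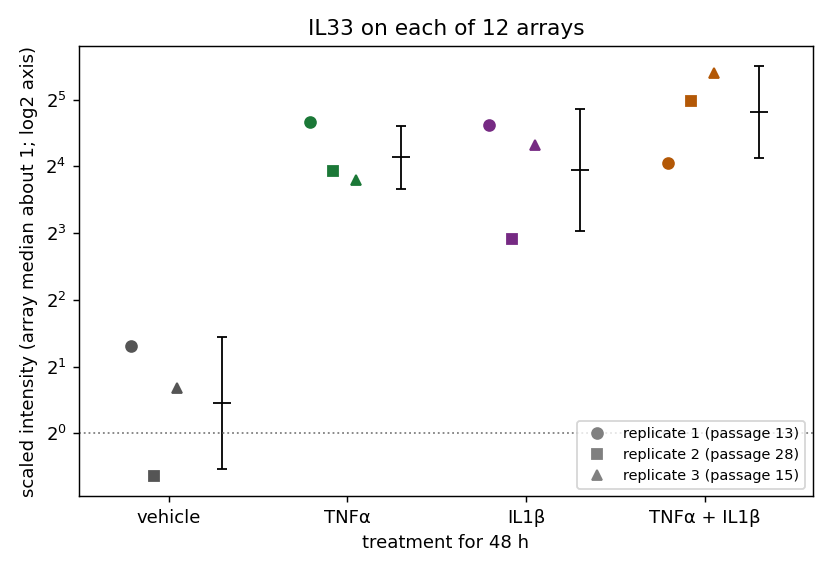
Scaled intensity of IL33 (vertical axis, log2 scale, array median about 1) on each array by treatment, with a symbol for each replicate and, beside them, the mean and SD of the log2 values (n = 3). The vehicle arrays sit between 0.643 and 2.48 and the treated arrays between 7.48 and 42.2.

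On the log2 scale, IL33 stood at 0.45 ± 0.99 with vehicle (SD, n = 3), 4.13 ± 0.47 with TNFα, 3.94 ± 0.91 with IL1β and 4.81 ± 0.69 with both. With both cytokines the difference from vehicle was 4.36 ± 0.59 (SE, n = 3 per group; limma, adjusted p = 0.0192), which is 20.5-fold. For that comparison 133 of 53671 probes, 0.248%, were called at an adjusted p under 0.05, 0.188% as higher. TNFα alone gave a difference of 3.68 ± 0.59, or 12.8-fold, that did not pass over all probes (limma, adjusted p = 0.0900; 0.0466% of probes called). IL1β alone gave 3.49 ± 0.59, or 11.3-fold, and did not pass either (limma, adjusted p = 0.225; 0.00559% of probes called). By unadjusted p, IL33 ranked 63rd, 55th and 34th of all probes with both cytokines, TNFα and IL1β.

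Whether the IL33 test passed depended on the arrays and settings used, although its difference from vehicle was positive in every alternative. With both cytokines it was not called without replicate 2 of that group (4.28, limma, adjusted p = 0.102), without its replicate 3 (4.06, adjusted p = 0.0953), without the 3 arrays that stood apart (4.47, adjusted p = 0.0610) or in a fit of the 6 compared arrays alone (adjusted p = 0.167). TNFα alone was called in 5 of 17 alternatives. These were without dim probes (limma, adjusted p = 0.0248), with 1 probe per gene (0.0395), with an offset before the log (0.0448), with a trend and robust variance prior (0.0258) and with array quality weights (0.0385). It was not called with the passage as a block (0.153), in the 6 compared arrays alone (0.582) or without any 1 of them (0.119 to 0.245). Without the 3 arrays that stood apart the difference was 3.96 with TNFα (adjusted p = 0.225) and 4.13 with IL1β (adjusted p = 0.302).

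The groups ordered IL33 as both cytokines, TNFα, IL1β and then vehicle. Of the neighbours in that order, both cytokines against TNFα differed by 0.68 (95% interval −0.64 to 1.99; limma, adjusted p = 0.981). TNFα against IL1β differed by 0.19 (−1.13 to 1.50; adjusted p = 0.990), and this sign turned under quantile normalization (−0.02), without TNFα replicate 1 (−0.08), without IL1β replicate 2 (−0.33) and without the 3 arrays apart (−0.16). Both cytokines against IL1β gave 0.87 (−0.45 to 2.18; adjusted p = 1.00). Each interval covers values on both sides of 0, so neither likeness nor a difference between the treated groups was shown. The interaction was taken on the log2 scale, where a sum of changes is a product of fold changes. Whether the intensities themselves added up was not tested. This interaction, the change with both cytokines minus the sum of the changes with each alone, was −2.82 (95% interval −4.68 to −0.95): the combined change was smaller than that sum on the log2 scale. It had an unadjusted p of 0.00706 (limma) and did not pass over all probes (adjusted p = 1.00), where 0% were called and 3.59% had an unadjusted p under 0.05.

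Markers of other cells were set beside the IL33 values. The 8 measured endothelial markers summed to 17.1 to 22.8 with vehicle, 17.9 to 20.9 with TNFα, 14.9 to 17.6 with IL1β and 16.9 to 18.2 with both cytokines. PECAM1 (7.99 to 17.3) was the brightest of them, and CDH5, KDR, EMCN and ERG stayed below 1 on every array. The 9 measured epithelial markers, with KRT19 the widest in range (13.9 to 97.3), summed to 104 to 148 with vehicle, 78.5 to 128 with TNFα, 40.6 to 78.8 with IL1β and 53.7 to 57.4 with both. The 10 measured leukocyte markers summed to 6.86 to 10.6 with vehicle, 8.13 to 9.58 with TNFα, 6.58 to 10.2 with IL1β and 10.3 to 10.9 with both. PTPRC was near 0 on every array. The 4 measured mast cell markers summed to 17.2 to 19.6 with vehicle, 14.8 to 19.3 with TNFα, 12.4 to 16.3 with IL1β and 14.6 to 17.0 with both. The part of these shifts in the IL33 result was not tested.

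The IL33 gene has 2 start sites in the RefSeq promoter table (GRCh38.p14), on the plus strand of chromosome 9. Both windows are shown because IL33 is the member whose signal rose. Capitals mark the 50 bases from the annotated start, and the 250 bases before it are in lower case.
IL33 upstream start, chr9:6214899-6215198: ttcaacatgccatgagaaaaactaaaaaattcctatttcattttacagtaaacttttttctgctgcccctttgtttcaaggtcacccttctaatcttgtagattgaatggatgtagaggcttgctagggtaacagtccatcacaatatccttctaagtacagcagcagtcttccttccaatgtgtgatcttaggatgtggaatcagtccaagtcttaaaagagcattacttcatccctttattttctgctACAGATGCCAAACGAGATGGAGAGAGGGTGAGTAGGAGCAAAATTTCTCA
IL33 downstream start, chr9:6215557-6215856: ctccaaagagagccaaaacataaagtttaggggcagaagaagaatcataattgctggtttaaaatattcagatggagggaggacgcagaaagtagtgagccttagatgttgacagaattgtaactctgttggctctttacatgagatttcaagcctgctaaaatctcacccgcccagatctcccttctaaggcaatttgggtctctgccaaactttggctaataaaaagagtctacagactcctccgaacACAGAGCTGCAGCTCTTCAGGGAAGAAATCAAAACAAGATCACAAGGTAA

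Neither IL33 window held the NF-kB consensus known as the kB site, searched on both strands, and neither held the AP-1 letters TGANTCA. Among all 35114 windows of 300 bases in the table, 11.3% held the kB consensus and 7.71% held TGANTCA, and a motif can match by chance. The windows of IL33 had 39.0% and 42.3% G or C. Of the 10 members, 9 matched the table, in 14 windows, and IL18 did not. The kB consensus was found in 3 of the 14, for IL1R2, IL18R1 and IRAK1, and TGANTCA in 4. Both overlapping IL1A windows held the same pair of TGANTCA matches, and the others were in IL1RL1 and IRAK1. A match is a description of letters and not a site in use.

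IL1A encodes interleukin 1 alpha, which acts through the same receptor as IL1β, and it was measured by 2 probes, of which the one with the higher mean log2 value is called the main probe. It gave 0.501, 0.331 and 0.570 with vehicle, 0.434, 0.247 and 0.568 with TNFα, 0.676, 0.505 and 0.903 with IL1β, and 0.607, 0.625 and 1.12 with both cytokines. On this probe the arrays with both cytokines were above every vehicle array by a small margin, and the single-cytokine groups overlapped vehicle. The second probe gave 0.0840, 0.141 and 0.331 with vehicle, 0.415, 0.302 and 0.394 with TNFα, 0.742, 0.487 and 1.32 with IL1β, and 0.295, 1.01 and 1.77 with both. There the IL1β arrays were above all vehicle and all TNFα arrays, and replicate 1 with both cytokines lay within the vehicle range.

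Neither IL1A probe passed the test. The second probe differed from vehicle by 2.31 ± 0.68 with IL1β (SE, n = 3 per group; limma, adjusted p = 0.431) and by 2.36 ± 0.68 with both (adjusted p = 0.212), against 1.22 ± 0.68 with TNFα (adjusted p = 0.780). The main probe gave 0.57 ± 0.38 with IL1β, 0.72 ± 0.38 with both and −0.21 ± 0.38 with TNFα. The 2 probes thus had the same sign with IL1β and with both cytokines and differed in size and, with TNFα, in sign.

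IL18, a ligand best known for driving interferon gamma in lymphocytes, was below 1 on all 12 arrays (0.167 to 0.476). Its log2 differences from vehicle were 0.13 with TNFα, −0.28 with IL1β and −0.51 with both (95% interval −1.40 to 0.37; limma, adjusted p = 0.627). The 4 groups overlapped.

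**Figure D2:**
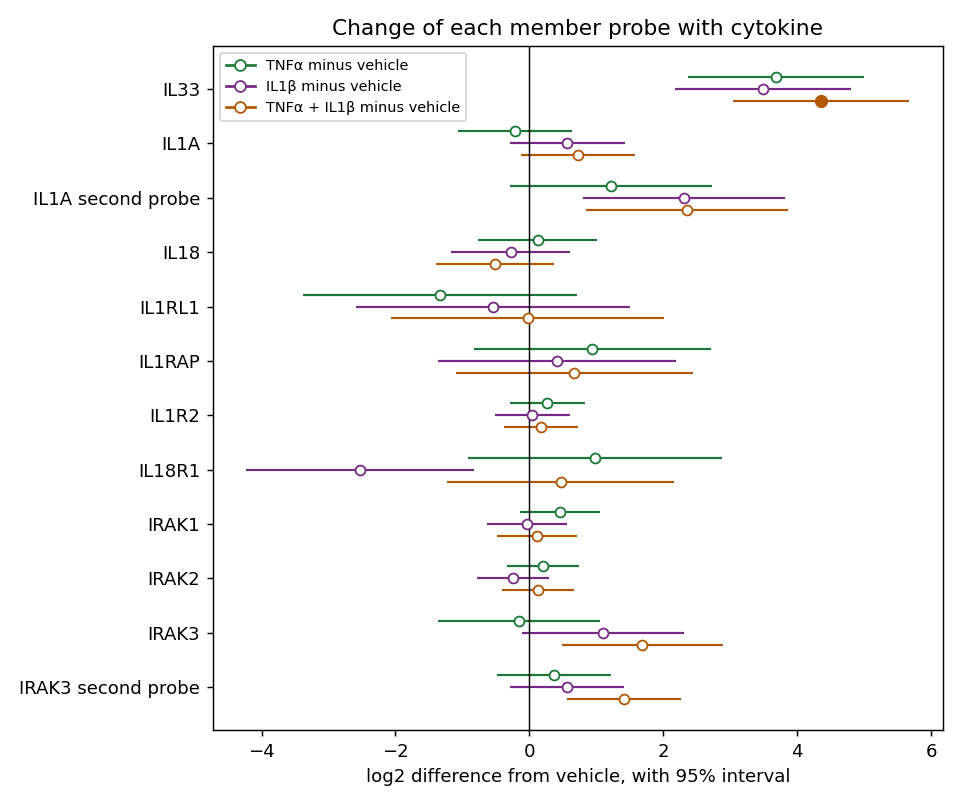
Log2 difference from vehicle (horizontal axis) of each of the 12 member probes with TNFα, IL1β or both cytokines, with the 95% interval from limma; filled points had an adjusted p under 0.05. IL33 with both cytokines, at 4.36, is the only filled point, and 9, 7 and 10 of the 12 differences are above 0 with TNFα, IL1β and both.

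Of the receptors, the IL33 receptor chain IL1RL1, also called ST2, gave almost no signal. Its intensity was 0.0096 to 0.221 over the 12 arrays, and the 4 groups overlapped. The log2 difference from vehicle was −1.33 with TNFα, −0.55 with IL1β and −0.02 with both (95% interval −2.07 to 2.02). The last value turned positive under quantile normalization (0.43), with array quality weights (0.91) and without vehicle replicate 1 (0.38) or 3 (0.31). The files hold no detection calls, so these values are described as dim and not as absence of the transcript.

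IL1RAP is the partner chain that the receptors for IL1 and IL33 share. It was below 1 on every array (0.0497 to 0.730), and its lowest value was that of vehicle replicate 3, an array that stood apart. Its log2 differences from vehicle were 0.94 with TNFα, 0.41 with IL1β and 0.67 with both, and none passed (limma, adjusted p = 0.773 to 0.904). Without vehicle replicate 3 all 3 turned negative, at −0.19, −0.72 and −0.46.

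IL1R2, a decoy receptor that binds IL1 without passing on a signal, gave 3.70, 6.17 and 6.04 with vehicle, 5.98, 5.55 and 7.25 with TNFα, 5.92, 4.55 and 5.60 with IL1β and 5.04, 5.42 and 7.27 with both. The groups overlapped, and vehicle replicate 1 was the lowest of the 12. The differences from vehicle were 0.27 with TNFα (95% interval −0.29 to 0.83), 0.04 with IL1β (−0.52 to 0.60) and 0.18 with both (−0.38 to 0.73). A rise of 1 on the log2 scale lay outside each of these intervals.

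IL18R1, the ligand-binding chain of the IL18 receptor, had values close to 0. With vehicle it gave 0.176, 0.0426 and 0.0612, with IL1β 0.0246, 0.0236 and 0.0041, and with both cytokines 0.118, 0.157 and 0.0653. With TNFα replicates 2 and 3 gave 0.165 and 0.140, and replicate 1 lay below 0 and was left out of the log2 fit (n = 2). The 3 IL1β arrays were below all vehicle arrays, with a log2 difference of −2.53 ± 0.75 that did not pass (limma, adjusted p = 0.431). The size of that difference rested on values near 0: adding an offset of 0.1 before the log left −0.66. Against IL1β, both cytokines gave 3.00 (adjusted p = 0.777) and 0.84 with the offset.

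**Figure D3:**
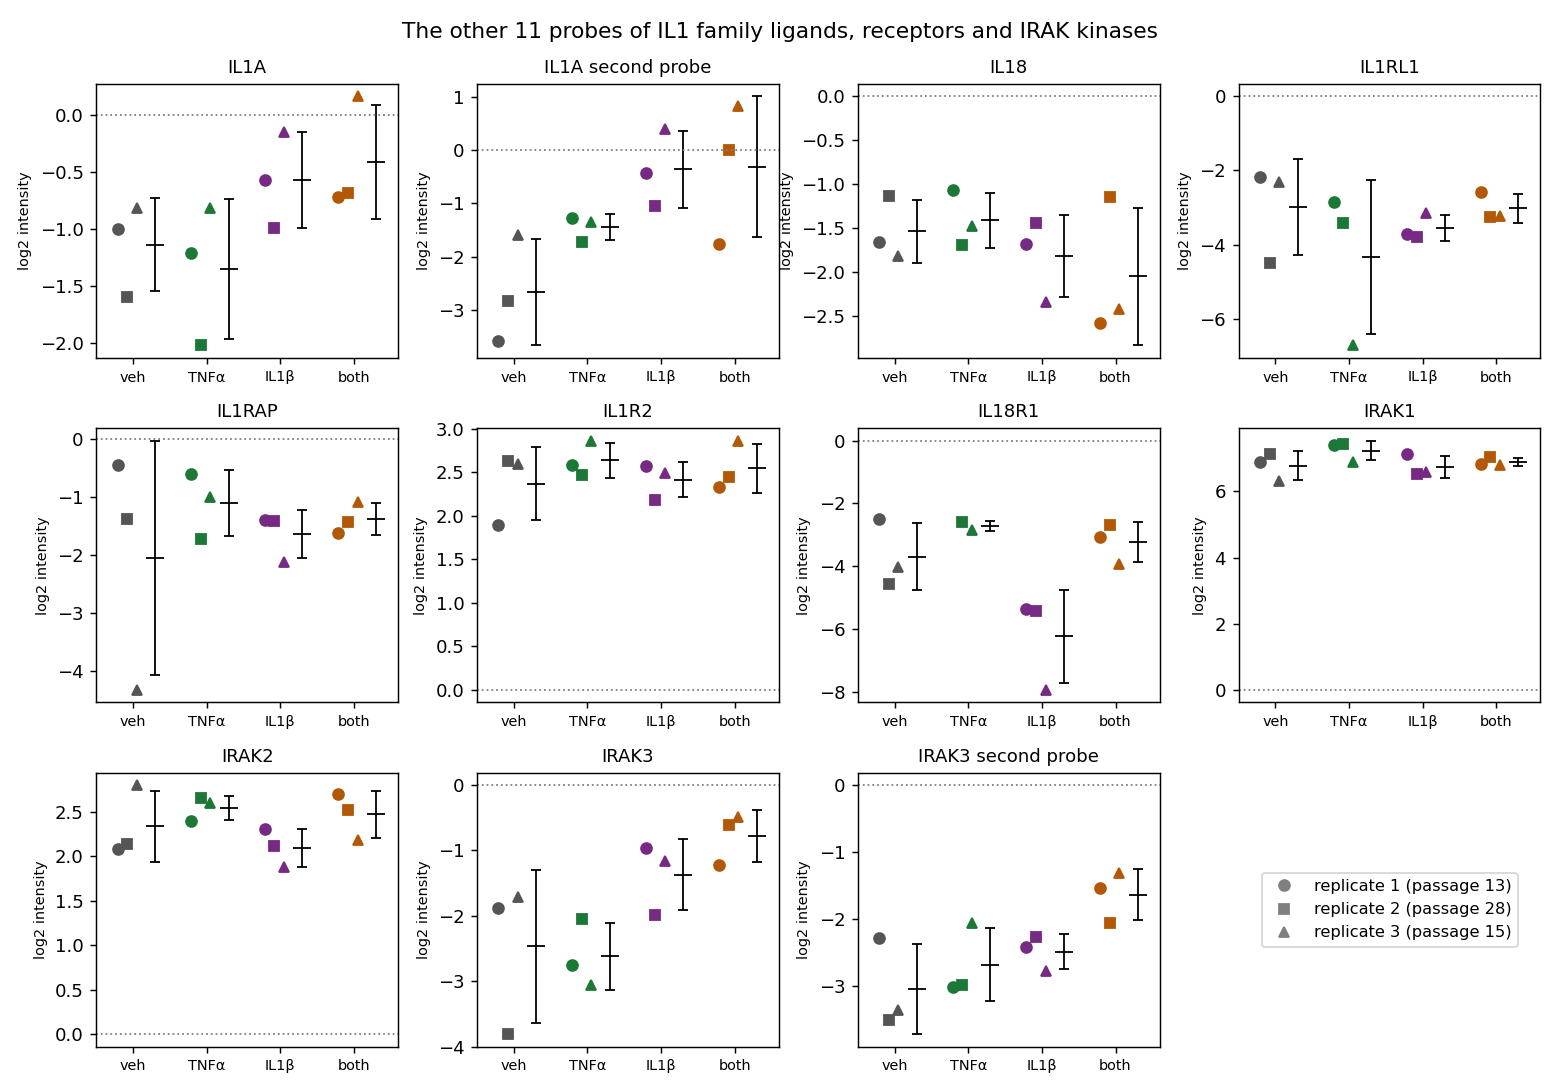
Log2 intensity (vertical axis, dotted line at the array median of about 1) of the other 11 member probes on each array by treatment, with a symbol for each replicate and the mean and SD of each group. IRAK1, IRAK2 and IL1R2 are above the dotted line on every array, while IL18, IL1RL1, IL1RAP, IL18R1 and both IRAK3 probes are below it on every array; vertical scales differ between panels.

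IRAK1 and IRAK2 were above the array median on every array, and IRAK3 below it. IRAK1 carries the signal from MYD88 to TRAF6. It gave 118, 141 and 78.9 with vehicle, 168, 171 and 118 with TNFα, 140, 91.4 and 95.9 with IL1β and 114, 132 and 112 with both. These ranges overlapped, and vehicle replicate 3 was the lowest. The differences from vehicle were 0.46 with TNFα (95% interval −0.14 to 1.06; limma, adjusted p = 0.797), −0.03 with IL1β (−0.63 to 0.57) and 0.12 with both (−0.49 to 0.72).

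IRAK2, which sustains NF-kB signalling after IRAK1 has acted, was also above 1 on every array. It gave 4.23, 4.39 and 6.97 with vehicle, 5.26, 6.29 and 6.05 with TNFα, 4.94, 4.32 and 3.67 with IL1β and 6.53, 5.76 and 4.55 with both. Its TNFα arrays were above its IL1β arrays without overlap (difference 0.45 ± 0.24; limma, adjusted p = 0.913). Against vehicle the differences were 0.21, −0.24 and 0.13 with TNFα, IL1β and both, and the groups overlapped.

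IRAK3, also called IRAK-M, restrains IL1 and Toll-like receptor signalling. Its main probe gave 0.273, 0.0712 and 0.306 with vehicle, 0.149, 0.241 and 0.120 with TNFα, 0.515, 0.253 and 0.447 with IL1β and 0.428, 0.652 and 0.710 with both. Its second probe gave 0.206, 0.0878 and 0.0977 with vehicle, 0.124, 0.127 and 0.241 with TNFα, 0.188, 0.208 and 0.146 with IL1β and 0.346, 0.240 and 0.404 with both. On both probes every array with both cytokines was above every vehicle array. On the main probe they were also above every TNFα array, and on the second above every IL1β array.

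With both cytokines the IRAK3 probes differed from vehicle by 1.69 ± 0.54 (SE, n = 3 per group; limma, adjusted p = 0.245) and 1.41 ± 0.38 (adjusted p = 0.185). Neither passed, and both did with array quality weights (2.63, adjusted p = 0.0241, and 1.68, adjusted p = 0.0383). With those weights 1200 of all probes were called, against 133 in the main fit. That was the only 1 of 16 alternatives for the main probe, and of 15 for the second, with a call. With an offset before the log the differences were 1.21 and 0.92. IL1β alone gave 1.10 and 0.57, TNFα alone −0.15 and 0.37. The main probe's TNFα value turned positive under quantile normalization (0.13), with array quality weights (0.79) and without the 3 arrays that stood apart (0.44).

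Counted together, 1 of the 12 probes with TNFα was above vehicle on every array with a positive value, IL33, where 3.72% of all probes were, and 0 were below (6.88%). With IL1β 2 were above, IL33 and the second IL1A probe, and 1 below, IL18R1 (3.53% and 9.96% of all probes). With both cytokines 4 were above, IL33, the main IL1A probe and both IRAK3 probes, and 0 below (7.02% and 14.8%). At an unadjusted p under 0.05 (limma) there were 1, 3 and 4 of the 12 with TNFα, IL1β and both, where 7.05%, 9.67% and 12.9% of all probes were. The median difference of the 12 was 0.32, 0.23 and 0.57 with TNFα, IL1β and both, against −0.05, −0.13 and −0.13 over all probes. These comparisons share the same vehicle arrays, so their values are not independent of each other.

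The treated groups were also set against each other for all 12 probes. Adding IL1β to TNFα left 2 probes above every TNFα array, the main IL1A probe (0.94 ± 0.38) and the main IRAK3 probe (1.84 ± 0.54), where 6.5% of all probes were, and 0 below (14.7%). Adding TNFα to IL1β left 2 above every IL1β array, IL18R1 and the second IRAK3 probe (0.85 ± 0.38), where 8.09% were, and 0 below (6.7%). Between the single cytokines, IRAK2 was higher with TNFα without overlap. So was IL18R1 by the 2 TNFα arrays with a log2 value, but TNFα replicate 1, below 0 and left out, was under all 3 IL1β arrays, and the log2 difference of 3.51 became 0.60 with the offset. Counted over positive values in this way, 10.8% of all probes were higher. The second IL1A probe (1.09 lower) and the main IRAK3 probe (1.25 lower) were lower with TNFα without overlap (3.91%). None of the 12 passed in these 3 comparisons or in the interaction. With limma, over all probes, 1 probe (0.00186%) was called for adding IL1β to TNFα, and 0% for each of the other 3. At an unadjusted p under 0.05 there were 3 of the 12 for adding IL1β to TNFα (5.08% of all probes), 2 for adding TNFα to IL1β (4.37%), 2 between the single cytokines (5.04%) and 1, IL33, for the interaction (3.59%).

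Other genes of the pathway were read from 5 lists, by the brightest single-gene probe of each gene. IL1B, IL1RN and IRAK4 had no single-gene probe, and the IL1R1 probe carried the missing code on every array, so these 4 genes were not analysed here. Of 7 measured ligands and antagonists of 9, 0 passed with both cytokines (limma; 1 higher and 1 lower at an unadjusted p under 0.05, where 4.2% and 8.68% of all probes were). The skin and epithelial cytokine IL36G had the lowest p of that list, at 2.03 ± 0.79 (adjusted p = 0.334; vehicle n = 2, intensities under 1 on every array). Of 5 measured receptors of 6, 0 passed (limma; 0 at an unadjusted p under 0.05). SIGIRR, an inhibitory member of the receptor family, stood at −0.38 ± 0.21 (adjusted p = 0.489).

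Of 21 measured adaptors and kinases of 26, 1 rose with both cytokines and 0 fell, where 0.188% of all probes rose and 0.0596% fell, and the list's median was 0.07 against −0.13 over all probes. This was MAP3K8, also called TPL2, a kinase that activates the ERK pathway, at 0.705 to 1.76 with vehicle and 5.86 to 7.35 with both (log2 difference 2.60 ± 0.37; limma, adjusted p = 0.0254). It was 1.94 ± 0.37 with IL1β (adjusted p = 0.264) and 0.93 ± 0.37 with TNFα (adjusted p = 0.648). Its call with both cytokines ended when vehicle replicate 2 or 3 or any of the 3 arrays with both cytokines was left out (limma, adjusted p = 0.0526 to 0.113). The call also ended without the 3 arrays apart (limma, adjusted p = 0.0645) and in a fit of the 6 compared arrays alone (0.175). A second MAP3K8 probe, which was far dimmer (mean intensity 0.152 against 3.49), gave 0.24. MYD88, the adaptor that the paired receptors bring in, stood at −0.27, −0.27 and −0.14 with TNFα, IL1β and both. All 3 turned positive without vehicle replicate 1.

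Of 12 measured genes of processing and the inflammasome of 15, 0 passed with both cytokines (limma; 1 higher at an unadjusted p under 0.05, where 4.2% of all probes were). That was CASP4, an inflammatory caspase that cleaves gasdermin D. CASP4 lay between 14.0 and 15.8 with vehicle, 26.2 and 36.1 with TNFα, 18.9 and 23.6 with IL1β and 25.9 and 27.3 with both, without overlap with vehicle. Its difference was 1.14 ± 0.18 with TNFα (limma, adjusted p = 0.0878) and 0.86 ± 0.18 with both (adjusted p = 0.116). The first passed without dim probes (0.0198), with 1 probe per gene (0.0395) and with a trend and robust prior (0.0300). The difference with both passed without dim probes (0.0399) and with array quality weights (0.0239). In these 2 settings 248 and 1200 of all probes were called with both cytokines, against 133 in the main fit. A second CASP4 probe, which was far dimmer (mean intensity 1.07 against 23.7), gave 0.43 with both.

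Of 24 measured target genes of IL1 and IL33 signalling of 28, 10 rose with both cytokines and 0 fell, where 0.188% of all probes rose and 0.0596% fell. Of these 10, the neutrophil chemokines CXCL2 (6.52 ± 0.71; limma, adjusted p = 0.00669) and CXCL8 (4.87 ± 0.57, adjusted p = 0.00944) had the largest differences, followed by the monocyte chemokine CCL7 (4.66 ± 0.48) and the NF-kB inhibitor TNFAIP3 (3.16 ± 0.46). The others were IL6, CXCL3, CCL2, PTGES, TNFAIP6 and ZC3H12A. The median over the list was 1.95. This list was chosen with earlier results of these data known, so its count beside the share of all probes is a description. The cultures with both cytokines also received TNFα, and the part of IL1β or IL33 signalling in the count was not tested. With TNFα 1 rose (the monocyte chemokine CCL2, named after its value was seen, 2.93 ± 0.38; limma, adjusted p = 0.0425; 0.041% of all probes rose), with a median of 0.70. With IL1β 0 passed (limma; 12 higher at an unadjusted p under 0.05, where 2.77% of all probes were), with a median of 1.21. With the passage as a replicate block 6 target genes passed with both cytokines and 0 with TNFα. Over all probes 88 and 13 were then called, against 133 and 25 in the main fit. The count of target genes with both was 5, 3 and 3 without replicate 1, 2 or 3 of that group, and 3 without the 3 arrays apart. Over all probes 62 and 27 were called without its replicate 1 or 2. Without those 3 arrays none of the 4 genes with values here was called (limma, adjusted p = 0.0550 for CXCL2, 0.0555 for CXCL8, 0.0515 for CCL7 and 0.0700 for TNFAIP3). The TNFAIP3 call also ended without vehicle replicate 2 or 3, without any of the 3 arrays with both cytokines and in the 6 compared arrays alone (0.0642 to 0.116), and the CXCL8 call without replicate 2 with both cytokines (0.0563). The 1 TNFα call was lost without vehicle replicate 1 or 2, TNFα replicate 1 or 3, or the 3 arrays apart. The count was 3 without TNFα replicate 2, where 42 of all probes were called.

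The genes whose log2 values over the 12 arrays were most like those of IL33, by Pearson's r among 16994 genes with values on all arrays, were HSD11B1, BDKRB1, TRPA1, CTSS and PHACTR3. HSD11B1, which regenerates cortisol, had r = 0.962 (Spearman 0.888), and the bradykinin receptor BDKRB1 had 0.949 (0.944). The irritant-gated channel TRPA1 had 0.932 (0.930), the lysosomal protease CTSS 0.927 (0.804) and the phosphatase and actin regulator PHACTR3 0.923 (0.720). All 12 arrays enter these values, the vehicle arrays lie apart from the treated ones for each gene, and r was 0.905 to 0.962 without the 3 arrays that stood apart.

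These 5 genes were picked by their likeness to IL33 on the same arrays. That they rose from vehicle was therefore largely fixed by the choice, and their tests are a description. They differed in how far they moved. With both cytokines HSD11B1 rose by 7.12 (limma, adjusted p = 0.000518), TRPA1 by 5.02 (adjusted p = 0.0206) and CTSS by 3.45 (adjusted p = 0.00282). BDKRB1 stood at 1.94 and PHACTR3 at 1.39 and did not pass (adjusted p = 0.122 and 0.0947). PHACTR3 was dim, with intensities under 1 on every array (0.215 to 0.891). In the same fit, second probes of HSD11B1 (6.85; limma, adjusted p = 0.000518) and CTSS (4.34, adjusted p = 0.0375) were also called with both cytokines. HSD11B1 also rose with TNFα (5.73; limma, adjusted p = 0.00319) and with IL1β (4.87, adjusted p = 0.0227), and CTSS with TNFα (3.38, adjusted p = 0.00395). Leaving out the 3 arrays apart ended the TNFα calls of HSD11B1 and CTSS (adjusted p = 0.114 and 0.125), the IL1β call of HSD11B1 (0.272) and the TRPA1 call (0.0731). A fit of the 6 compared arrays alone ended the same calls (0.230, 0.299, 0.397 and 0.0785). Leaving out any 1 of the 6 compared arrays ended the IL1β call of HSD11B1 (0.0577 to 0.136), and any but vehicle replicate 1 ended the TRPA1 call (0.0574 to 0.102). Among the members, the second IL1A probe had r = 0.757 with IL33, the IRAK3 probes 0.606 and 0.610, and the IL33 receptor IL1RL1 −0.02.

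**Figure D4:**
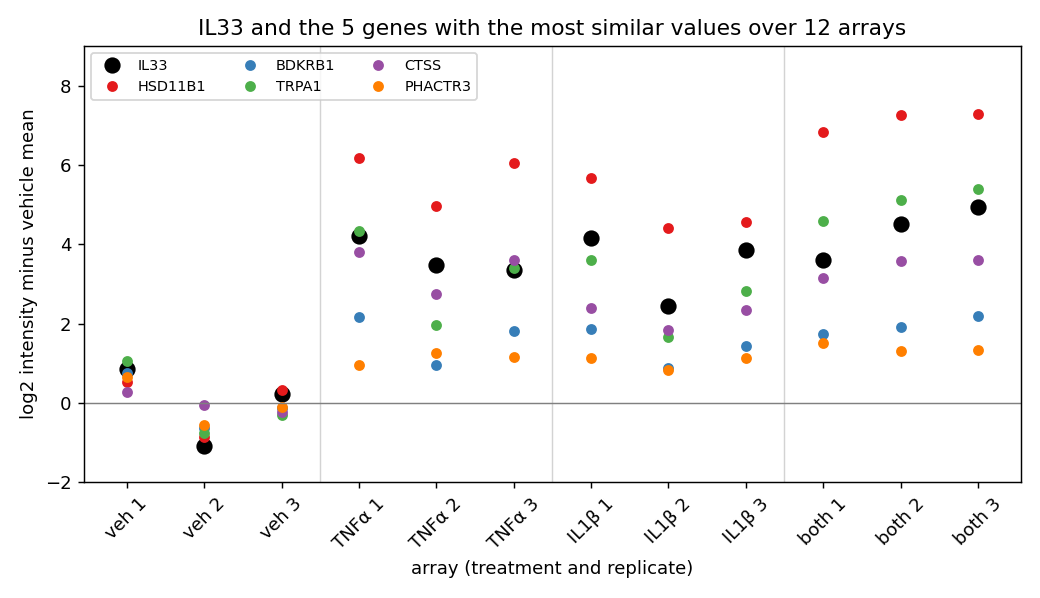
Log2 intensity minus the mean of the 3 vehicle arrays (vertical axis) on each of the 12 arrays (horizontal axis) for IL33 and the 5 genes with the highest Pearson's r with it. For each of the 6 genes every treated array is above every vehicle array, by the smallest margin for BDKRB1 and PHACTR3, and HSD11B1 has the widest range. The 5 genes were picked on these same values, so their likeness to IL33 here follows from the choice.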

How the data were processed

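RNA from 12 cultures was hybridised to single-colour CodeLink whole human genome arrays, 1 culture per array, per the labels' protocols. The deposited values are scaled intensities with an array median near 1, used as deposited; how the authors made them is otherwise not given in the sources used here, and no scanner files were used. A code of −9999 marked missing values (0.716%), and 1.10% of values lay at or below 0; both were left out of the log2. Probes were named through the platform's gene table (23472 with 1 gene, 905 with several, 29982 with none), with symbols updated by Entrez ID for 23434.

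log2 of the deposited intensity was fitted with limma 3.58.1 (R 4.3.3; lmFit, eBayes) as 4 group means over 12 arrays with 8 residual degrees of freedom, for the 53671 probes with at least 2 values in every group, and p was adjusted by Benjamini-Hochberg over them. Simulated data of the same size were used to test the script. A probe was called at an adjusted p under 0.05. With 3 arrays against 3 an exact permutation test of 1 probe cannot go below 0.1, so none was run. Cultures were different passages of 1 line, so p-values measure the spread between these cultures. Replicate numbers stand for the same 3 passages in every group, per the labels; same-numbered arrays deviated together with a mean r of 0.01 (−0.20 to 0.31, 18 pairs), and the passage was not a term of the fit but an alternative. The number of arrays limits the precision.

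The named genes are every member probe; up to 4 called genes of each pathway list with the largest difference with both cytokines, or else the gene with the lowest p; MYD88; and the 5 genes with the highest Pearson's r with IL33. The members and lists were chosen with earlier results of these data known. Alternatives were quantile normalization, centred medians, an offset of 0.1, filters on dim or incomplete probes, 1 probe per gene, a trend and robust prior, array quality weights, the passage as a block, a fit of only the groups compared, and each array left out in turn. Leaving out the 3 arrays that stood apart, and all alternatives for genes other than members, were added after seeing the data.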

Additional observations from a re-analysis of the deposited data

How the results depend on the processing

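Of 2092 alternative log2 differences of members and other named genes, 1933 kept their direction and side of the threshold, 32 newly passed, 41 no longer passed and 86 changed sign; all sign changes were in values that were not called. A call could be lost only where the main fit had one, and most of the 1933 were not called in either fit. Among the calls, IL33 with both cytokines held in 13 of 17 alternatives, MAP3K8 in 10 and HSD11B1 with IL1β in 9. Those of HSD11B1 and CTSS with both cytokines held in all 17. Of 175 alternative counts of called members or target genes, 142 stayed close to the main count, most of them at 0, 16 were higher and 17 lower. The cause of these shifts was not tested, beyond fewer arrays where some were left out.

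IL33 with TNFα was called, as 1 member probe, in 5 of 17 alternatives. These were with the offset (3.57), without dim probes, with 1 probe per gene and with the trend and robust prior (each 3.68), and with array quality weights (4.53). IL33 with both cytokines was not called, leaving 0 member probes, in the compared groups alone (4.36) and without the 3 arrays apart (4.47); leaving out 1 array gave 3.81 to 4.79 and 0 to 1 member probes, and array quality weights gave 3. With the replicate block (passage) IL33 stood at 4.36 (limma, adjusted p = 0.0345), and the block changed no other member's call; over all probes 88 were then called with both cytokines against 133, and 1200 with array quality weights, 24 in the compared groups alone and 77 without the 3 arrays apart.

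Target genes higher with TNFα numbered 2 with the offset, without dim probes, with all 12 values, with 1 probe per gene and with the trend prior. In these settings 48, 50, 36, 37 and 57 of all probes were called, against 25 in the main fit. The target count was 0 with the replicate block, the compared groups alone or without the 3 arrays (13, 0 and 0 of all probes), and 0 to 3 leaving out 1 array. The target counts therefore moved beside the number called over all probes. With IL1β the target genes numbered 2 with the offset, 3 without dim probes, 1 with 1 probe per gene and 3 with the trend prior. In these settings 5, 8, 3 and 8 of all probes were called, against 3 in the main fit. With both the target genes numbered 6 with the replicate block (88 of all probes), 3 in the compared groups alone (24) and without the 3 arrays, and 3 to 9 leaving out 1 array. The main fit called 133 of all probes there.

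Signs turned under quantile normalization for IRAK3 with TNFα (0.13), IRAK1 with IL1β (0.22), IL1RL1 with both (0.43) and IL33 between TNFα and IL1β (−0.021). The offset turned IL18R1 with TNFα (−0.062) and with both against TNFα (0.24), and the replicate block IL36G with TNFα (−0.072). Array quality weights turned, with TNFα, IL1A (0.028), IL18 (−0.072), IL1RL1 (0.33), IRAK3 (0.79) and IL36G (−0.53); with IL1β, IL1RL1 (0.58), IL1RAP (−0.32) and IL1R2 (−0.053); with both, IL1RL1 (0.91) and IRAK1 (−0.14); with both against IL1β, the second IL1A probe (−0.11) and IL18 (0.011); and in the interaction IL1A (−0.0098), IL18 (0.083), IL1RL1 (−0.0027), IL1RAP (0.0078), IL1R2 (0.036) and IRAK3 (−0.30). Without the 3 arrays apart the sign turned, with TNFα, for IL1RL1 (0.19), IL1RAP (−0.25), IRAK3 (0.44), its second probe (−0.10), IL36G (−0.52) and SIGIRR (0.033); with IL1β, for IL1RAP (−0.84); with both, for IL1RL1 (0.31), IL1RAP (−0.46) and IRAK1 (−0.12); with both against TNFα, for IL1R2 (0.019); with both against IL1β, for IL1A (−0.055) and its second probe (−0.29); with TNFα against IL1β, for IL33 (−0.16) and IL1RL1 (0.28); and in the interaction for IL1RAP (0.62), IRAK2 (−0.033) and IRAK3 (−0.16).

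Leaving out 1 array at a time gave ranges that crossed 0. With TNFα they were −0.83 to 0.22 for IRAK3, −0.045 to 0.33 for IL18, −0.19 to 1.74 for IL1RAP, −0.48 to 0.12 for IL1A, −0.59 to 0.061 for MYD88, −0.11 to 0.016 for SIGIRR and −0.52 to 1.01 for IL36G. With IL1β they were −0.20 to 0.17 for IL1R2, −0.27 to 0.15 for IRAK1, −0.72 to 1.21 for IL1RAP and −0.59 to 0.057 for MYD88. With both they were −0.77 to 0.38 for IL1RL1, −0.065 to 0.30 for IL1R2, −0.46 to 1.47 for IL1RAP, −0.12 to 0.30 for IRAK1 and −0.46 to 0.19 for MYD88. With both against TNFα they were −0.25 to 0.019 for IL1R2 and −0.19 to 0.068 for IRAK2. With both against IL1β they were −0.13 to 0.37 for IL1A, −0.52 to 0.77 for its second probe, −0.68 to 0.035 for IL18 and −0.026 to 0.24 for IL1R2. With TNFα against IL1β they were −0.33 to 0.52 for IL33 and −1.52 to 0.40 for IL1RL1. In the interaction they were −0.29 to 0.11 for IL1R2, −1.48 to 0.46 for IL1RAP and −0.064 to 0.31 for IRAK2.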
